A study of Caenorhabditis elegans with 4 samples.

Results

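ChIP-seq peaks of PQN-85 in wild-type Caenorhabditis elegans embryos formed 343 separate regions on chromosome IV, out of 1978 on all chromosomes. They were taken from 3 deposited peak lists, 1 for each of 2 ChIP replicates and 1 for the series as a whole, and peaks of different lists that had at least 1 bp in common were joined into 1 region. The ChIP samples were mixed-stage embryos of the N2 strain, of wild-type genotype and a mixed male and hermaphrodite population, with the experiment run at 20 °C, fixed in 2% formaldehyde for 30 minutes and precipitated with SDQ4481, a rabbit polyclonal antibody raised against PQN-85. Both ChIP samples shared all of these properties, so no treatment or genotype was compared. A further 2 samples were input DNA, and no list of theirs was analysed here, so the input signal at the regions was not compared. Mixed embryos hold many cell types and stages, and a peak list does not tell in which of them a site was bound. The labels do not say whether the replicates came from separate cultures. Chromosomes II, III, V and X served as background.

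PQN-85 is the worm form of Scc2, known in mammals as NIPBL, which loads the ring-shaped cohesin complex onto chromatin. Cohesin holds sister chromatids together and folds chromosomes into loops. Worm chromosomes are holocentric, meaning that spindle attachment is spread along their length and no single centromere divides them. Autosome centres are rich in genes and recombine little, and the arms are richer in repeats and in silent, lamina-associated chromatin. Chromosome IV is also the main home of the worm's piRNA genes, which make small RNAs that silence transposons in the germ line. Genes under the regions were not analysed here, because the gene table used was on another build (WBcel235) than the peaks (WormBase WS220, per the file headers).

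The chromosome IV part of the lists held 312 peaks in replicate 1, 103 in replicate 2 and 178 in the series-level list. These covered 158 kb, 73.7 kb and 80.5 kb, or 0.903%, 0.421% and 0.460% of the chromosome. Joined, the 343 regions covered 177 kb (1.01%) at a density of 19.6 regions per Mb, with a median width of 346 bp. The density lay between 13.6 per Mb on V and 23.9 on X, with 18.3 on II and 23.1 on III. The median width of single peaks on IV was 297.5 bp in the series-level list, with quartiles at 198.25 and 520. It was 352.5 bp for replicate 1, with quartiles at 206.75 and 544.25, and 475 bp for replicate 2, with quartiles at 247 and 784.5.

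Most regions on IV rested on 1 list, as on the background chromosomes. Replicate 1 alone gave 187 of the 343 regions (54.5%), where the share over II, III, V and X was 50.2%. The series-level list alone gave 25 (7.29%, against 8.44%) and replicate 2 alone 4 (1.17%, against 1.99%). All 3 lists held 79 regions (23.0%), where the share over II, III, V and X was 24.0%. Replicate 1 and the series-level list shared 32 further regions (9.33%, against 9.89% over II, III, V and X). Replicate 2 and the series-level list shared 9 (2.62%, against 3.22%), and both replicates without the series-level list 7 (2.04%, against 2.30%). How the replicates entered the series-level list is not stated, so its peaks are not independent of theirs.

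Regions found in both replicates numbered 86 on IV (25.1%, 95% interval 20.6 to 30.0), against a background of 26.3% of the 1304 regions on II, III, V and X. The difference did not pass the test (odds ratio 0.94, Fisher's exact adjusted p = 0.81), and the interval on IV includes the background share. Read from the shorter list, 90 of the 103 replicate 2 peaks on IV overlapped a replicate 1 peak (87.4%, 79.4 to 93.1). On the background chromosomes the share was 84.2% of 468 (Fisher's exact adjusted p = 0.81 for the difference), with 76.3% on II and 88.2% on X as the extremes. In the other direction 92 of 312 replicate 1 peaks overlapped a replicate 2 peak (29.5%, 24.5 to 34.9), where the background share was 33.2% of 1185, from 29.0% on X to 42.2% on V. These tests and intervals treat regions as independent, although neighbours cluster, and cover counting error only.

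Regions with more support were wider, to which the joining of peaks from several lists itself adds. The median width was 704 bp for the 79 regions in all 3 lists, 393 bp for those shared by replicate 1 and the series-level list, and 283 bp for those in replicate 1 alone. Regions in the series-level list alone had a median of 184 bp, and the 4 in replicate 2 alone a median of 167 bp. The 79 regions in all 3 lists thus made up 44.1% of the base pairs covered on IV, and the 187 replicate 1 regions made up 35.4%. The same order of the first 3 medians held over the background chromosomes, at 720, 394 and 320 bp.

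Support also followed the score, which is the authors' own value per peak from the MACS caller. No header names its quantity, so it was ranked within its list. Of the 63 highest-scoring replicate 1 peaks on IV (scores from 287.06 to 3100), 51 overlapped a replicate 2 peak (81.0%, 69.1 to 89.8). The share was 27.0% in the next 63 and 8.06% in the lowest 62 (2.67 to 17.8). In replicate 2 all 42 peaks scoring 217.3 or more overlapped a replicate 1 peak, and 14 of the lowest 20 did (70.0%). The series-level list showed 88.9% of its highest 36 peaks in both replicates and 31.4% of its lowest 35. The same score classes were not compared on II, III, V and X, so these shares do not set IV apart.

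**Figure D1:**
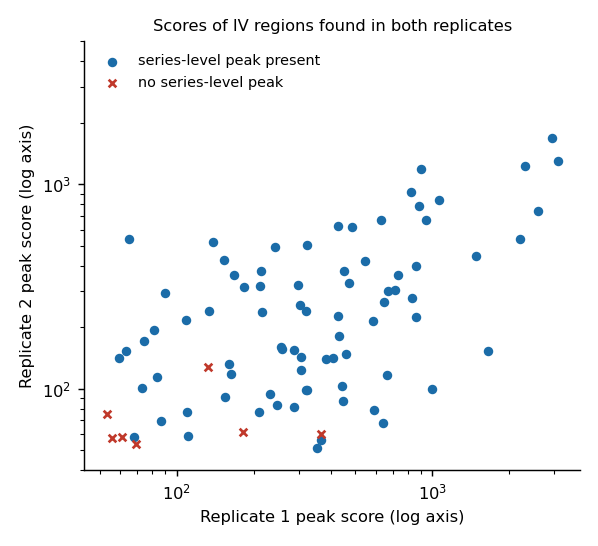
Replicate 1 score (horizontal, log axis) against replicate 2 score (vertical, log axis) for the 86 regions of chromosome IV found in both replicates, 1 point per region at its highest-scoring peak. Blue circles have a series-level peak and red crosses, 7 in all, have none. The points rise together with wide scatter, and the crosses lie at low replicate 2 scores.

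Across the 86 regions found in both replicates, replicate 1 and replicate 2 scores were related with rho = 0.50 (Spearman), given as a description since regions of 1 chromosome are not replicates. The value was 0.52 on X over 104 regions, 0.64 on III, 0.68 on V and 0.74 on II. Between replicate 2 and the series-level list rho was 0.67 on IV over 88 regions, and between replicate 1 and the series-level list 0.53 over 111. In the 78 regions with exactly 1 peak in each replicate, which had to overlap to be counted, the peak midpoints differed by a median of 19.75 bp (interquartile range 7.5 to 64.25), and 55 differed by at most 50 bp. The largest difference was 512.5 bp. The replicate 2 peak was the wider in 44 of these 78 regions and the replicate 1 peak in 34.

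The 10 leading regions were those in all 3 lists with the best mean rank among the IV peaks of each list. First was a 2147 bp region in the right arm, from 14032491 to 14034637 on WS220. Replicate 1 scored it 2930.81, replicate 2 scored it 1690.85 and the series-level list 57.1. These were ranks 2, 1 and 2 on IV and ranks 24, 14 and 9 in the whole lists. The series-level list split this region into a strong right peak of 1041 bp and a weaker left one of 998 bp that scored 11.88, where each replicate had a single peak. Next was a left-arm region of 2209 bp, from 2828427 to 2830635, with 3100 in replicate 1, 1299.84 in replicate 2 and 44.16 in the series-level list. The value 3100 was the highest of replicate 1 on IV and was shared by 15 replicate 1 peaks on II, III, IV, V and X. The starts given by the 3 lists spanned 40 bp and the ends 10 bp. Its ranks on IV were 1, 2 and 6.

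The leading regions were not spread evenly. Of the 10, 5 lay within 376 kb near the right edge of the centre, from 11025778 to 11401521, a stretch that makes up 2.15% of the chromosome. The strongest of them, from 11400288 to 11401521, scored 900.16, 1184.16 and 51.81 in replicates 1 and 2 and the series-level list. A pair of neighbours began at 11324011 and 11325591. The space between them was 0.402 kb, so merging regions within 500 bp would join them. The first of the pair scored 1059.26, 836.25 and 43.77, and the second 631.46, 665.28 and 28.14. A further 12.5 kb to their right, from 11339588 to 11340931, came a region scored 827.25, 914.24 and 43.2. Between that region and the strongest one lay 59.4 kb. The left end of the stretch was a 787 bp region from 11025778 to 11026564, scored 942.15, 667.86 and 27.51. A space of 297 kb parted it from the pair, so most of the stretch lies between it and the others. The 5 regions ranked between 4 and 10 on IV in replicate 2 and between 9 and 26 in replicate 1. The stretch was picked after these values were seen and was not tested. It held 16 regions, 7 of them in both replicates, and 5 of the 10 highest-scoring replicate 2 peaks of IV, 6 of the 31 highest of replicate 1 and 4 of the 17 highest of the series-level list. Those 5 replicate 2 peaks belong to the 5 leading regions that set the stretch, so their count restates the choice. Most of the replicate 1 and series-level peaks counted belong to these regions too. Leading regions had to be in every list, so 5 of the 7 regions in both replicates also follow from the choice. The share in both replicates was 43.8% in the stretch and 25.1% over all regions of IV. This difference therefore restates the choice in large part.

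The other 3 leading regions ranked much higher in the replicates than in the series-level list, or bordered a gap on 1 side. From 13360440 to 13362057, a right-arm region scored 2211.07, 538.7 and 40.76, and no region lay in the 244 kb to its left. From 6357747 to 6361106, a centre region of 3360 bp scored 2589.63 and 737.65 in the replicates, ranks 3 and 8, but its best series-level peak scored 16.87, rank 35. From 3206321 to 3209602, a left-arm region of 3282 bp had ranks 4 and 3 in the replicates, with scores of 2299.21 and 1232.29, and a best series-level score of 12.91, rank 49. In both of these wide regions each replicate had 1 peak and the series-level list 3. The mean rank at the end of the 10 was 18.7, and the next region had 19.0, so the list has no natural end there.

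Splitting of wide regions was common in the series-level list. Of the 79 regions in all 3 lists, it divided 16, replicate 1 divided 5 and replicate 2 divided 4. The 16 had a median width of 1360 bp, against 666 bp for those it kept whole. The widest region of the chromosome, 5658 bp in the left arm from 4416440 to 4422097, was a single peak in replicate 2 (score 783.4), 3 peaks in replicate 1 (highest 887.04) and 8 in the series-level list, with scores from 1.6 to 8.41. Regions of 2 kb or wider numbered 11 (3.21% of the regions on IV, against 3.30% on II, III, V and X). They made up 20.5% of the base pairs covered, and 7 of the 11 were in all 3 lists, against 23.0% of all regions on IV. Joining peaks of several lists itself adds width, and this count was not made on II, III, V and X. Of these 11 wide regions 4 lay in the left arm, 5 in the centre and 2 in the right arm.

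Some strong sites were found in replicate 1 and the series-level list and not in replicate 2. The second widest region, 5133 bp in the centre from 11070823 to 11075955, carried the highest series-level score on IV, 67.26, which was rank 3 in that whole list. Its replicate 1 score was 938.58, rank 13 on IV, and the nearest replicate 2 peak lay 35.5 kb away. It lies inside the 376 kb stretch with the 5 leading regions. A run of 5 adjoining regions from 8572630 to 8581927, also in the centre, scored 580.12, 590.09, 311.88, 995.32 and 1432.47 in replicate 1, left to right. Their best series-level scores were 13.33, 24.91, 2.95, 8.51 and 25.99. The last region of the run was the next widest on IV, at 3741 bp, and the nearest replicate 2 peak to the run was 103 kb away. These 6 regions were among the 12 with a replicate 1 score in the highest 63 of IV and no replicate 2 peak. Merging regions within 500 bp would join the 5 regions of the run into a single one, wider than the widest region described above. The counts of 6 and 12 thus depend on the joining rule. A peak missing from a list was only not called there, which does not show an unbound site.

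The strongest regions held by a single list were weaker. In replicate 1 alone the highest were in the centre from 7319848 to 7320497 (score 335.59) and in the left arm from 3160733 to 3161357 (308.13) and from 3384513 to 3384978 (294), at ranks 48, 54 and 59 on IV. In replicate 2 alone the highest scored 98.24, from 15765616 to 15765781 in the right arm, followed by 58.14 and 55.79 in the left arm, from 3435507 to 3435635 and from 2916396 to 2916563. The highest in the series-level list alone was the last region of the chromosome, from 17493458 to 17493824 (16.89). After it came the left-arm regions from 3294681 to 3294829 (9.24) and from 2756047 to 2756360 (8.23). A right-arm region from 14838297 to 14838480 tied with the latter at 8.23. Of the 7 regions in both replicates but not the series-level list, the highest in replicate 1 ran from 6096945 to 6097594, with 365.41 there and 60.11 in replicate 2. The next were from 6210026 to 6210263, with 182.28 and 61.49, and from 1950636 to 1951214, with 131.86 and 128.25.

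Both ends of chromosome IV carried regions. The first ran from base 1 to 230, and was found in replicate 1 (score 307.3), replicate 2 (123.71) and the series-level list (11.45). Near the right end, a region from 17492370 to 17492971 was in all 3 lists, and the series-level region that follows it ended at the largest coordinate listed, 17493824. The 213 kb to the left of this pair held no region. The length of IV was taken as that largest coordinate, so a region reaching the right end follows from this definition.

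The regions were then placed in the centre, the middle 33.3% of the length by midpoint, and in the left and right arms of equal length on either side. The centre ran from 5831275 to 11662549. It held 132 of the 343 regions (38.5%, 33.3 to 43.9), the left arm 107 (31.2%) and the right arm 104 (30.3%). On II, III and V together the centre held 40.4%, and on X 29.6%. The centre of IV thus had 22.6 regions per Mb, against 18.3 in the left arm and 17.8 in the right. Its regions had a median width of 418.5 bp, against 318 and 329.5 bp, and held 45.6% of the base pairs covered.

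The excess in the centre did not pass the adjusted test (exact binomial p = 0.045, adjusted p = 0.14 over 6 tests). It passed when the replicate 1 list was left out (43.9%, exact binomial adjusted p = 0.029) and with the middle 50% of the length as the centre (58.3%, exact binomial adjusted p = 0.015). Leaving out a replicate dropped only its own list and kept the series-level list, whose use of the replicates is not stated. Such settings therefore cannot show what remains without that replicate's data. The threshold was missed without replicate 2 (38.9%), in the higher-scoring 50% of each list (41.7%, exact binomial adjusted p = 0.10 for both), with regions within 500 bp merged (37.0%, 0.54) or among regions found in both replicates (38.4%, 0.81). By list the centre share was 39.4% in replicate 1 (34.0 to 45.1), 35.9% in replicate 2 (26.7 to 46.0) and 44.4% in the series-level list (37.0 to 52.0). The share on IV did not differ by test from that of II, III and V together (odds ratio 0.92, Fisher's exact adjusted p = 0.81). Set against X, IV had an odds ratio of 1.49 (Fisher's exact p = 0.011, adjusted p = 0.066). With the series-level list kept, this difference passed without the replicate 1 list (43.9% against 27.7%, Fisher's exact adjusted p = 0.0085) or without the replicate 2 list (38.9% against 29.0%, Fisher's exact adjusted p = 0.026). It did not pass with regions within 500 bp merged (37.0% against 30.4%, Fisher's exact adjusted p = 0.22) or among regions found in both replicates (38.4% against 24.0%, Fisher's exact adjusted p = 0.14).

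**Figure D2:**
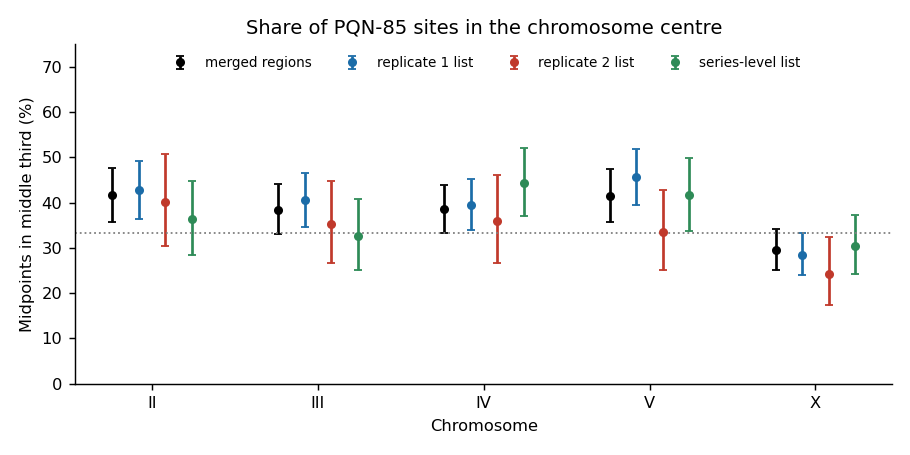
Share of site midpoints in the middle 33.3% of each chromosome (vertical, percent), for merged regions (black) and each list (colours), with exact 95% binomial intervals and the share of the length as a dotted line. On IV the points run from 35.9% in replicate 2 to 44.4% in the series-level list, and on X all 4 points are below the line.

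The arms of IV held like numbers of regions and unlike support. Of the 211 arm regions 104 were in the right arm (49.3%, 42.4 to 56.2, exact binomial adjusted p = 0.89). Replicate 1 had 94 peaks in the left arm and 95 in the right, replicate 2 had 24 and 42, and the series-level list 45 and 54. Regions found in both replicates made up 14.0% of the left arm (15 of 107, 8.06 to 22.1), 25.0% of the centre (33 of 132, 17.9 to 33.3) and 36.5% of the right arm (38 of 104, 27.3 to 46.6). The intervals of the arms do not overlap. Among arm regions found in both replicates, 38 of 53 were in the right arm (71.7%, exact binomial adjusted p = 0.013). Without that restriction the arms held like numbers, as given above. The comparison of support between arms was chosen after its values were seen. The p-value of the restricted share was adjusted with the main tests, not for the number of alternatives tried. Both it and the intervals rest on the same counts and treat regions as independent, although neighbours cluster. The arm difference in support is therefore given as a description. Regions in replicate 1 alone were 63.6% of the left arm, 51.5% of the centre and 49.0% of the right arm. They made up 56.4% of the left and 44.4% of the right arm on II, and 46.2% and 35.2% on V. On III they made up 45.7% and 49.0%, and on X 50.0% and 55.3%. No common direction appeared on the other chromosomes. The shares found in both replicates in the left and right arm were 14.5% and 27.8% on II, 29.5% and 38.6% on V, 30.9% and 21.6% on III, and 31.5% and 21.7% on X. Whether the arm difference of IV departs from that of the other chromosomes was not tested.

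**Figure D3:**
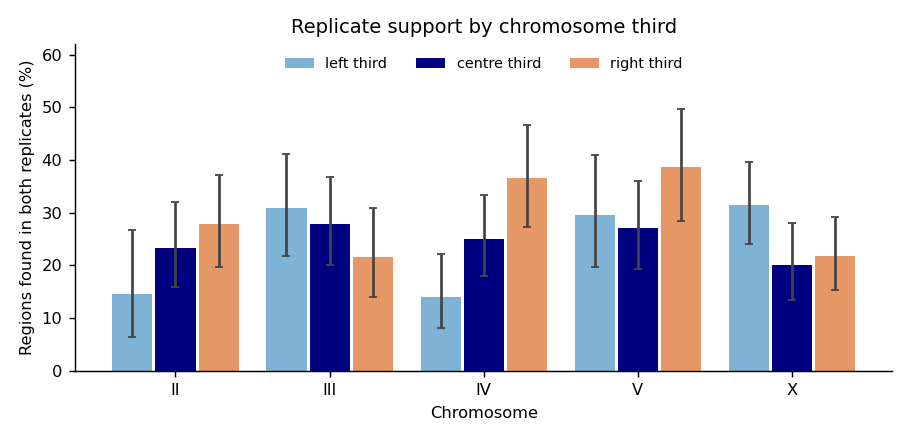
Share of regions found in both replicates (vertical, percent) in the left arm, centre and right arm of each chromosome, with exact 95% binomial intervals. On IV the bars rise from 14.0% on the left to 36.5% on the right, and on III and X the left bar is the highest.

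The regions were unevenly spread along IV. In 20 equal bins of 875 kb the number of regions ran from 8, in bin 2, to 28, in bin 10, with a median of 17. Bins 6 and 13 followed with 26 each. Bin 6 had 2 regions in both replicates and bin 13 had 9. Bins 5 and 12, with 10 and 13 regions, held none found in both replicates. In bin 12 replicate 2 had 2 peaks, and in bin 5 it had 0 where replicate 1 had 9. The counts per bin ran from 7 to 29 in replicate 1, 0 to 11 in replicate 2 and 2 to 21 in the series-level list. The highest bin of replicate 1 and of the series-level list was bin 10, and that of replicate 2 was bin 19.

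**Figure D4:**
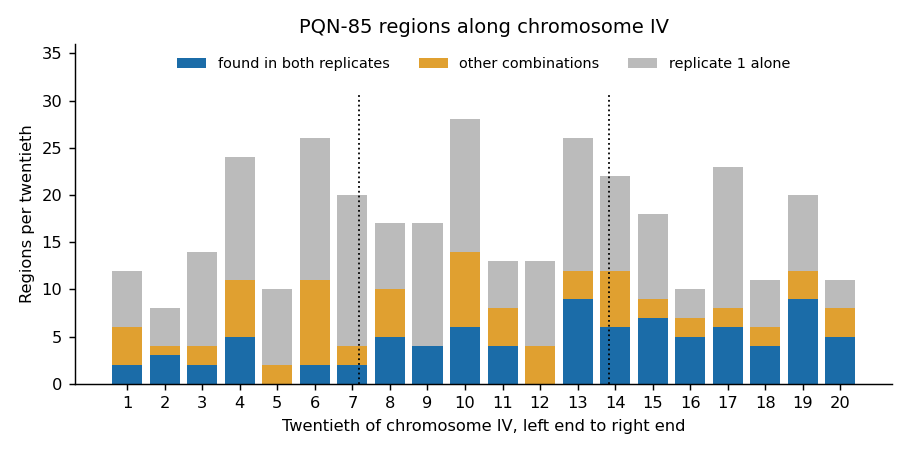
Number of regions (vertical) in 20 equal bins from the left to the right end of chromosome IV (horizontal), stacked by support, with dotted lines at the edges of the centre. Bin 10 is the highest with 28 regions, and blue bars, found in both replicates, reach 9 in bins 13 and 19 and 0 in bins 5 and 12.

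Clusters were defined as runs of 3 or more regions, each at most 10 kb from the next. IV had 24 of them with 98 regions in all (28.6% of its regions, against 31.2% on II, III, V and X). The share was 23.9% on X, 30.2% on III, 33.1% on V and 41.6% on II. The largest clusters of IV held 7 regions, where the largest of II, III, V and X held 12, 13, 13 and 14. Clusters spanned 1.09 to 31.6 kb with a median of 8.15 kb, and 9 lay in the left arm, 8 in the centre and 7 in the right arm. Regions in clusters were found in both replicates in 21.4% of cases and those outside in 26.5%. In 12 of the 24 clusters no region was found in both replicates, and 4 clusters consisted of replicate 1 regions alone. Over all regions of IV, 25.1% were in both replicates and 54.5% in replicate 1 alone, and 11 of the clusters held only 3 regions. The counts of such clusters were not made on II, III, V and X, so they do not set IV apart.

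The 8 clusters with 5 or more regions differed in their support. A left-arm cluster of 7 from 4390464 to 4422097 was made up of the widest region of IV and 6 weaker ones to its left, 5 of them in replicate 1 alone. A right-arm cluster of 7 from 14605136 to 14620928 consisted of replicate 1 regions alone, with a highest score of 287.13. The cluster of 6 from 8565608 to 8581927 contained the run of strong regions without a replicate 2 peak. Of the 5 clusters with 5 regions, the one from 9764719 to 9774452 mixed all lists without any region in both replicates. Its highest scores were 87.52 in replicate 1, 77.21 in replicate 2 and 5.35 in the series-level list. The one from 11025778 to 11035277 began with a leading region. That from 12169409 to 12188980 had 1 region in all 3 lists and 4 in replicate 1 alone. The cluster from 14763251 to 14781508 had 3 regions in all 3 lists, with scores up to 716.97, 305.76 and 32.52. In the last, from 16382097 to 16410356, 2 of 5 regions were in all lists, and the highest scores were at rank 163 of 312 on IV in replicate 1 and rank 51 of 103 in replicate 2.

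Neighbouring regions of IV had a median distance between midpoints of 29.7 kb (95% order-statistic interval 21.4 to 36.6). The medians were 20.1 kb on II, 21.0 on III, 26.8 on X and 38.7 on V, and the interval of IV includes those of X and overlaps those of the others. Distances under 2 kb made up 17.0% of the 342 on IV, between 14.9% on X and 20.1% on V. In single lists the median distance on IV was 31.7 kb in replicate 1, 40.1 kb in the series-level list and 109 kb in replicate 2.

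**Figure D5:**
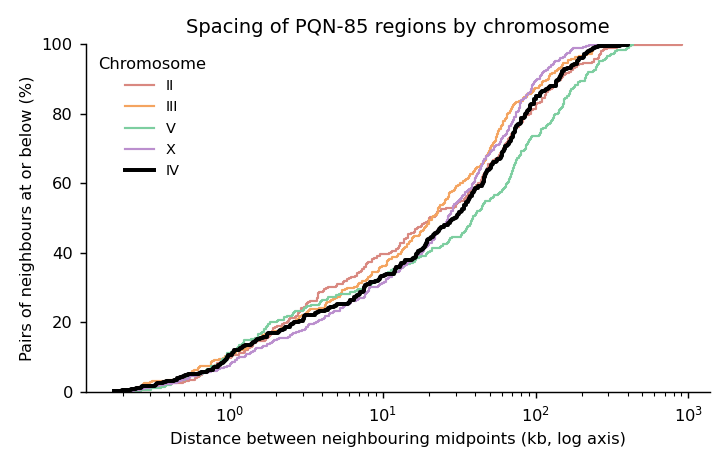
Percentage of neighbouring pairs (vertical) at or below a given distance between midpoints (horizontal, kb, log axis), for chromosome IV (thick black) and II, III, V and X. The median of IV, 29.7 kb, lies between those of X (26.8 kb) and V (38.7 kb), and the curves run close together under 2 kb.

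Gaps of at least 100 kb without a region numbered 54 on IV and took up 52.2% of its length, between 36.3% on X and 72.0% on V. The longest, 401 kb in the centre from 9774453 to 10175162, began directly at the edge of the cluster of 5 described above. A series-level peak with a score of 1.81 ended it on the right. In replicate 2 the empty stretch that begins at this cluster reached 10821417, a length of 1047 kb, the longest of that list on IV. In replicate 1 it reached 10222227. The second longest gap, 355 kb in the right arm from 14125525 to 14480434, ended at a region in all 3 lists with scores of 90.26, 293.32 and 9.92. The next gaps measured 256 kb (3764070 to 4019767, left arm), 244 kb (13115999 to 13360439, right arm) and 237 kb (7580577 to 7817861, centre). Of the 14 gaps of 200 kb or more, 6 lay in the left arm, 3 in the centre and 5 in the right arm. The longest gap was 389 kb on III, 435 kb on V, 270 kb on X and 909 kb on II.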

How the data were processed

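The authors aligned reads with BWA, with ce10 as the build, per the submitters' processing notes. The source columns name MACS for the replicate peaks and MACS v2 for the series-level peaks, and WormBase WS220 is the build per the file headers. Settings of the caller, filters and any use of input DNA: not given in the sources used here. The deposited score is the authors' own, not normalized between lists, and sequencing depth is unknown, which limits what a missing peak shows. A caller that drops weak peaks or splits wide ones changes the numbers of regions.

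Peaks were joined at 1 bp or more of overlap in Python (3.11.15). Tests used scipy (1.17.1), summaries numpy (2.4.6) and plots matplotlib (3.10.9). Chromosome length was the largest coordinate listed on it, as a WS220 genome was not used here. A caller can place a peak's edge past the last base, so lengths are approximate. Intervals are exact (Clopper-Pearson) 95% binomial intervals. The 6 tests (exact binomial, Fisher's exact) were two-sided, adjusted together by Benjamini-Hochberg at 0.05, and the code was tested on simulated data. Each alternative replaced 1 of the 6 p-values before adjustment.

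Regions were named by these rules: the 10 in all 3 lists with the best mean rank, the 3 highest-scoring of each other single-list class and of both replicates alone, clusters of most regions (8, because of ties at 5), the 5 longest gaps, the 3 widest and the end regions. The run of 5 regions without a replicate 2 peak, the 376 kb stretch and the comparison of support between arms were chosen after their values were seen. Members and lists were chosen with earlier results of these data known. Genes and sequences were not analysed here for want of a genome on WS220.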

Additional observations from a re-analysis of the deposited data

How the results depend on the processing

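Of 47 alternative values, 19 kept their direction and side of the threshold or moved within their interval. The cause of the others was not tested, unless fewer peaks or a changed definition give it. The centre share of IV passed with the middle 50% as centre (58.3%) and with the series-level list alone (44.4%). Without each ChIP replicate list in turn it ran from 38.9% to 43.9%, passing without that of replicate 1. Settings without a replicate dropped only its own list and kept the series-level list. Against X the centre share passed with the middle 50% (58.3%), the higher-scoring 50% (41.7%), the series-level list alone (44.4%) and with either replicate list left out in turn (38.9% to 43.9%). Against II, III and V, no alternative passed, and IV turned from lower to higher with the middle 50% (58.3%), the higher-scoring 50% (41.7%), the series-level list alone (44.4%) and without replicate 1 (range 38.9% to 43.9%). The right-arm share turned from under to over 50% with the middle 50% as centre (52.4%), the series-level list alone (54.5%), in regions found in both replicates (71.7%, the only one to pass) and without replicate 1 (range 49.3% to 57.6%). In the higher-scoring 50%, the share in both replicates rose above background (30.8%) and replicate 2 overlap lay below it (82.8%), and neither passed. The median distance was 75.8 kb in the higher-scoring 50%, 36.7 kb with regions within 500 bp merged, 40.1 kb in the series-level list alone, and 28.1 to 61.8 kb without a replicate, the higher value without replicate 1. The share in clusters was 15.4%, 19.0% and 43.3% in the first 3 of these, 23.8% to 30.1% without a replicate, 21.0% with a 5 kb limit and 43.1% with 20 kb. No paired analysis was possible because only the ChIP samples had lists here, and the input samples with the same numbers had none.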
